A study of Mus musculus with 23 samples.

Results

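The surfactant and alveolar type 2 cell genes described here were Sftpa1, Sftpd, Sftpb, Sftpc, Napsa, Abca3, Lamp3, Lpcat1, Slc34a2 and Hc. Probe sets annotated with exactly 1 of these 10 symbols were taken, which gave 18 probe sets of 9 genes, out of 45037 probe sets and 18193 genes measured. Lamp3, a lamellar body membrane protein, had its only probe set annotated with a second symbol as well, so no value is given for it. Each gene is described by its probe set of highest mean signal, and values of other probe sets are given beside it in some comparisons.

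RNA of the whole right lung was hybridised to 23 arrays, 1 per sample. BALB (BALB/c) contributed 3 CF females and 3 CF males (CF-/-) as well as 3 control females and 3 control males (CF+/+). B6 (C57BL/6) contributed 3 CF females, 2 CF males, 3 control females and 3 control males of the same genotypes. The mutant allele and the age of the mice were not given in the labels used here, nor was it said that each array had its own mouse, so every p-value rests on array-to-array spread that could be technical.

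Alveolar type 2 cells line part of the air sacs and make pulmonary surfactant, the film of phospholipid and protein that lowers surface tension and keeps the air sacs open. The lipid and the hydrophobic proteins SP-B and SP-C are packed in lamellar bodies, storage organelles related to lysosomes, and are secreted from them. The collectins SP-A and SP-D bind carbohydrates on microbes and take part in host defence. Since whole lung was measured, fewer cells of a type and less RNA per cell cannot be told apart in any comparison.

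Promoters of 7 of the 10 genes were listed in the RefSeq table of GRCm38.p6, each from 250 bases before to 50 bases after the gene's start. They were searched on both strands for CTCAAG, a core of sites bound by NKX2-1, the lung transcription factor known to act on surfactant protein promoters, and for TGTTTAC, a motif bound by forkhead factors of the FOXA family. The promoters of Sftpa1 and Sftpb are shown for their matches, with CTCAAG in capitals. That of Hc is shown because its signal differed most between groups among the brightest probe sets of the measured genes.
Sftpa1: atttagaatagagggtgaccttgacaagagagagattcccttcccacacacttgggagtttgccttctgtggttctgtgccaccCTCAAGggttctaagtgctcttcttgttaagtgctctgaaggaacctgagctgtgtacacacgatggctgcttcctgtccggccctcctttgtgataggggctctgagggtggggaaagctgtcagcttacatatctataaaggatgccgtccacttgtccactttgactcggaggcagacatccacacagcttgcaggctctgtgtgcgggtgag
Sftpb: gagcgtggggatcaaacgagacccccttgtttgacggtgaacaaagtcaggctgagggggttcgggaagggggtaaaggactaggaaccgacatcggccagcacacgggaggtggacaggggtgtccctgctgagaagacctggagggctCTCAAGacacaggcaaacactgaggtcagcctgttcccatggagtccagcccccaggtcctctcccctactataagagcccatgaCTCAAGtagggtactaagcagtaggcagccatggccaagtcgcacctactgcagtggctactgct
Hc: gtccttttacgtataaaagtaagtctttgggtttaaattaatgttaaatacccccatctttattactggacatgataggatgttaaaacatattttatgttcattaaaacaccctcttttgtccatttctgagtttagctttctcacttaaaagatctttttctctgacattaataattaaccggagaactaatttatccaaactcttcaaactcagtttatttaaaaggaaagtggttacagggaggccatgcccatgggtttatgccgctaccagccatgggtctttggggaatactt
The Sftpa1 window is chr14:41131538-41131837 on the plus strand, with CTCAAG beginning at base -166 from the start. The Sftpb window is chr6:72304360-72304659 on the plus strand, with CTCAAG at -100 and at -15. The Hc window, chr2:35061363-35061662 on the minus strand, held neither motif and had a G and C content of 34.7%. TGTTTAC was found in 1 of the 7, the Lamp3 promoter, at -92, and the promoters of Abca3, Slc34a2 and Lpcat1 held neither. Of all 32851 promoters of the same length, 15.9% held CTCAAG and 3.65% held TGTTTAC. A match describes letters and shows no binding.

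The genes that define type 2 cells were among the brightest on every array. Sftpc ranked between place 1 and place 4 of 45037 probe sets on all arrays, Sftpa1 between 13 and 27, Sftpd between 29 and 64, Sftpb between 40 and 82, and Slc34a2 between 83 and 163. The lowest place of any of the 9 genes on any array was 839, for Abca3. The markers that define the cell type were thus high on all 23 arrays.

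Some arrays also carried signal of other tissues, scored as the mean over a marker list of each gene's log2 signal relative to its own median across arrays. The intestine list (13 measured genes) scored -0.17 to 0.81 in BALB CF lungs against 0.27 to 1.89 in BALB control lungs, and -0.18 to -0.01 in B6 CF lungs against -0.13 to 1.14 in B6 control lungs. The squamous epithelium list (13 genes) scored 1.86, 2.26 and 3.47 in BALB CF females and 3.40 in B6 control male 3. The skeletal muscle list (14 genes) scored 1.37, 1.84 and 3.09 in BALB CF females and 2.73 in B6 control male 3. B6 control female 1 scored 1.14 for intestine, 1.15 for squamous epithelium and 0.76 for skeletal muscle. Cftr, the gene named by the genotype, averaged 3.99 ± 0.38 in BALB CF lungs and 5.66 ± 0.18 in BALB control lungs (log2 signal, SD, n = 6 each). Cftr averaged 4.06 ± 0.22 in B6 CF lungs (n = 5) and 4.28 ± 0.19 in B6 control lungs (n = 6). It did not separate the B6 genotypes (limma adjusted p = 0.430), with both means below the median of 4.59 over all probe sets. The array data therefore do not check the B6 genotype labels. The intestine score had a median of -0.141 in BALB CF lungs and 1.496 in BALB control lungs. Whether intestine content contributed to the Cftr difference in BALB was not tested, so that difference is no check of the BALB labels either.

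The first comparison set CF lungs against control lungs within each strain. In B6 the one member gene that passed was Hc, the gene of complement component C5, which was lower in CF lungs. Sftpa1, Sftpb, Sftpc and Sftpd showed no called difference in either strain, with estimates between -0.08 and 0.08 on the log2 scale for their brightest probe sets. In BALB no member gene passed. All differences are of log2 signal from limma fitted over all 8 groups, with Benjamini-Hochberg adjustment over all probe sets and a threshold of 0.05.

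In B6, 1 of 9 member genes fell in CF lungs and 0 rose, while 4.71% of all probe sets passed. At an unadjusted p under 0.05 there were 4: Hc, Slc34a2, Lpcat1 and Abca3. By probe sets, 3 of the 18 fell, that of Hc and 2 of the 3 of Abca3. In BALB, 0 of 9 member genes passed with limma, 1 did at an unadjusted p under 0.05 (Hc), and 4.92% of all probe sets passed. The median difference of the 9 genes was -0.08 in B6 and -0.04 in BALB, beside 0.01 and -0.01 over all genes.

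**Figure D1:**
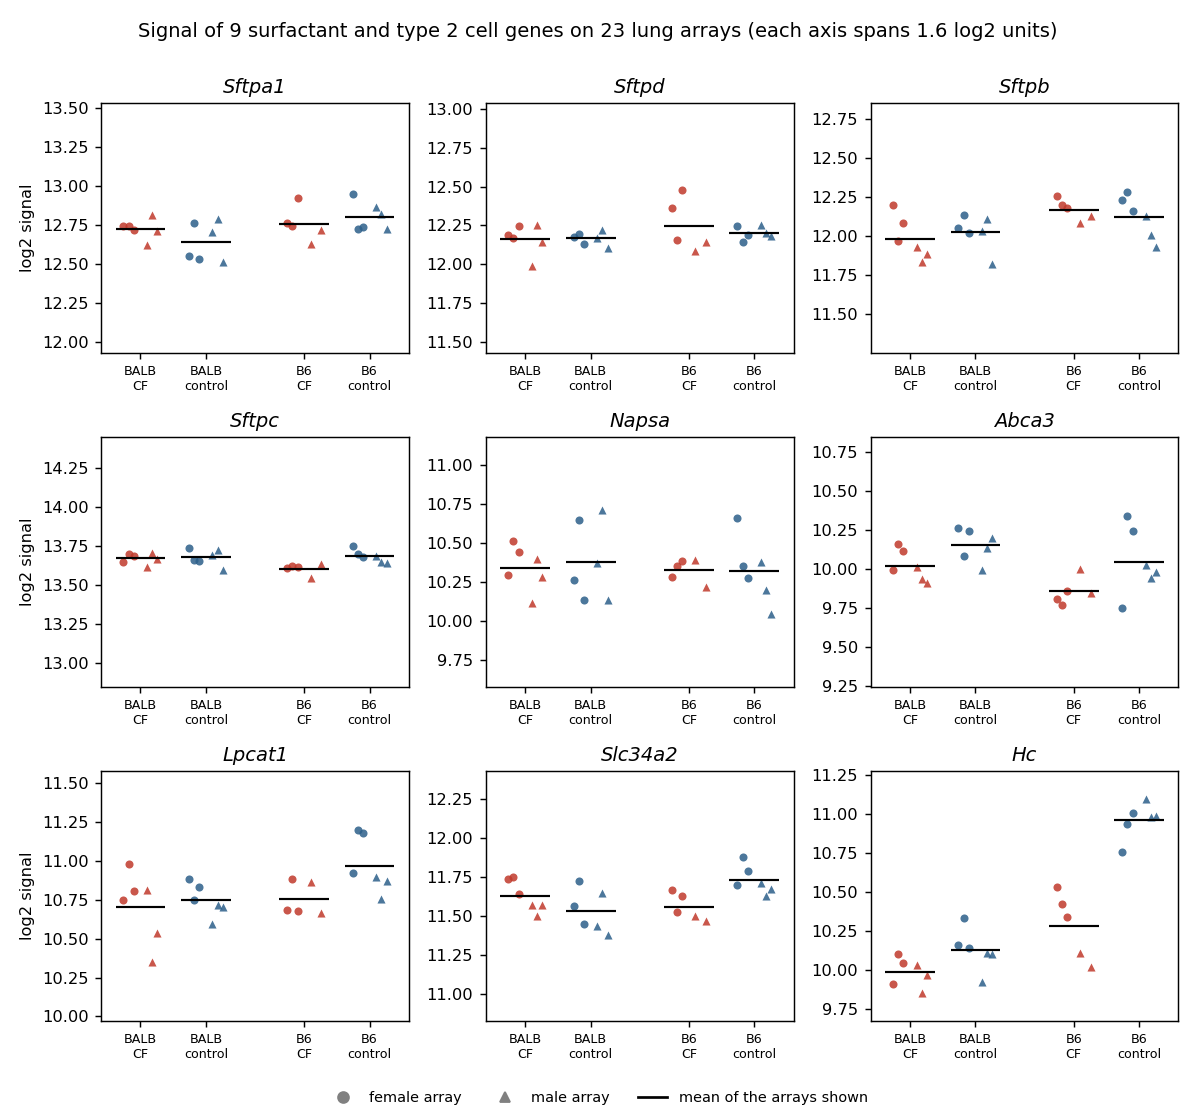
Log2 signal of the 9 measured genes on each of the 23 arrays, by strain and genotype. Circles are female and triangles male arrays, and black lines are plain means over the arrays of a strain and genotype. Hc separates the 5 CF arrays from the 6 control arrays of B6, while Sftpc varies by only 0.20 over all 23 arrays.

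Sftpa1 encodes SP-A, a collectin and the most abundant surfactant protein. Its signal was 12.62, 12.73 and 12.82 in BALB CF lungs, against 12.51, 12.63 and 12.79 in BALB control lungs (lowest, median and highest). The signal was 12.63, 12.74 and 12.93 in B6 CF lungs, against 12.72, 12.78 and 12.95 in B6 control lungs. CF and control lungs overlapped in both strains. The differences were 0.08 (SE 0.06, limma adjusted p = 0.560) in BALB and -0.06 (SE 0.07, adjusted p = 0.721) in B6. A second probe set of Sftpa1, with a mean of 10.71, gave -0.01 in BALB and -0.11 in B6, and neither passed.

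Sftpd encodes SP-D, the other collectin. It read 11.99, 12.18 and 12.25 in BALB CF lungs, against 12.10, 12.17 and 12.22 in BALB control lungs. It read 12.09, 12.15 and 12.48 in B6 CF lungs, against 12.14, 12.19 and 12.25 in B6 control lungs. The 95% interval of the CF effect was -0.12 to 0.12 in BALB and -0.11 to 0.15 in B6. Of the B6 CF arrays, females 1 and 3 read 12.36 and 12.48, above all other arrays of the series, while the other 3 were within the range of the BALB arrays.

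The hydrophobic proteins spread and stabilise the lipid film. Sftpb, whose product SP-B is required for breathing at birth, read 11.83, 11.95 and 12.20 in BALB CF lungs, against 11.82, 12.04 and 12.14 in BALB control lungs. It read 12.08, 12.18 and 12.26 in B6 CF lungs, against 11.93, 12.15 and 12.28 in B6 control lungs. The differences were -0.05 (SE 0.06, limma adjusted p = 0.759) in BALB and 0.04 (SE 0.06, adjusted p = 0.845) in B6. CF and control lungs overlapped in both strains.

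Sftpc encodes SP-C, which in the lung is made by type 2 cells. It read 13.61, 13.62 and 13.62 in B6 CF females and 13.55 and 13.63 in B6 CF males, against 13.75, 13.70 and 13.68 in B6 control females and 13.69, 13.65 and 13.64 in B6 control males. All 5 CF arrays of B6 were below all 6 control arrays, but the difference, -0.08 (SE 0.05, limma adjusted p = 0.405), did not pass. The signal was 13.62, 13.68 and 13.71 in BALB CF lungs, against 13.60, 13.68 and 13.74 in BALB control lungs, a difference of -0.01 (SE 0.04, adjusted p = 0.967). The highest value of the whole table was 13.82, so Sftpc read close to the top of the measured scale, and whether that narrowed its differences was not tested. A dim second probe set of Sftpc gave -0.07 in BALB and 0.06 in B6.

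Napsa encodes napsin A, an aspartic protease that takes part in cutting SP-B from its precursor. It read 10.12, 10.35 and 10.52 in BALB CF lungs, against 10.14, 10.32 and 10.71 in BALB control lungs. It read 10.22, 10.36 and 10.39 in B6 CF lungs, against 10.05, 10.32 and 10.66 in B6 control lungs. Its CF effect was -0.04 (SE 0.10, limma adjusted p = 0.907) in BALB and 0.01 (SE 0.11, adjusted p = 0.990) in B6, and of the 9 genes it had the widest spread within groups, an SD of 0.19. A dim second probe set gave 0.28 in BALB and did not pass in either strain. Without B6 control male 1 it passed in BALB at the same difference (limma adjusted p = 0.0498). In B6 it averaged 4.89 in CF and 5.10 in control females, and 5.15 in CF and 5.01 in control males.

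Abca3 encodes the transporter that moves phospholipid into lamellar bodies. Its 3 probe sets gave effects of different size. The brightest read 9.81, 9.77 and 9.86 in B6 CF females, against 9.75, 10.34 and 10.24 in B6 control females. It read 9.999 and 9.85 in B6 CF males, against 10.02, 9.94 and 9.98 in B6 control males. CF and control lungs overlapped, with a difference of -0.18 (SE 0.08, limma adjusted p = 0.263). The lowest B6 control array was female 1, which carried intestine, squamous and muscle signal, and without it the difference was -0.27 (adjusted p = 0.0121). On the middle probe set the signal was 8.56, 8.61 and 8.66 in B6 CF lungs, against 8.69, 8.84 and 9.05 in B6 control lungs. These did not overlap, and the signal was lower in CF lungs, at -0.24 (SE 0.07, adjusted p = 0.0367). That call was lost without B6 CF female 1, B6 CF female 2, B6 CF female 3, B6 CF male 1, B6 CF male 2, B6 control female 2, B6 control female 3, B6 control male 1 or B6 control male 2, taken singly, with differences of -0.25 to -0.21 and adjusted p of 0.0545 to 0.137.

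The dimmest Abca3 probe set had a mean of 5.50. It read 4.78, 4.35 and 4.86 in B6 CF females and 4.69 and 4.77 in B6 CF males, against 5.01, 5.48 and 5.42 in B6 control females and 5.61, 5.71 and 5.45 in B6 control males. Every B6 CF array was below every B6 control array. The difference was -0.75 (SE 0.10, limma adjusted p = 0.000102), and it passed in all 32 alternative analyses. Of these, 23 left out a single array, and leaving out a BALB array cannot move this difference. The mean of 4.70 in B6 CF lungs was close to the median of 4.59 over all probe sets and is not shown to be above background, so no fold is given. The same probe set read 5.66, 5.96 and 6.20 in BALB CF lungs, against 5.63, 5.83 and 5.93 in BALB control lungs, a difference of 0.11 (SE 0.09, adjusted p = 0.578). The brightest and middle probe sets gave -0.13 and -0.03 in BALB, and neither passed. The mean over the 3 probe sets differed by -0.39 in B6 (adjusted p = 0.00124). The dimmest, at -0.75 beside -0.18 and -0.24, weighed most in that mean, so it is no separate support for the brighter probe sets.

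**Figure D2:**
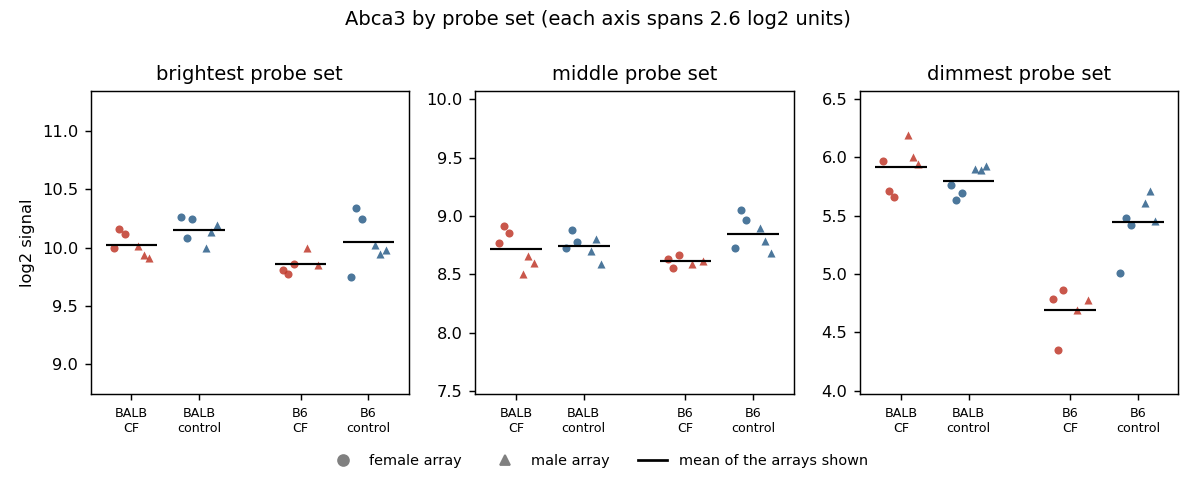
Log2 signal of the 3 Abca3 probe sets on each array, brightest on the left and dimmest on the right, by strain and genotype, with circles for females, triangles for males and black lines for plain means. The difference of CF minus control lungs in B6 was -0.18, -0.24 and -0.75 in the 3 panels, against -0.13, -0.03 and 0.11 in BALB.

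Lpcat1 encodes an acyltransferase that makes the saturated phosphatidylcholine of surfactant. Its main probe set read 10.67, 10.68 and 10.88 in B6 CF lungs, against 10.75, 10.91 and 11.20 in B6 control lungs, a difference of -0.21 (SE 0.08, limma adjusted p = 0.150). In B6 females it read 10.68, 10.88 and 10.68 in CF lungs, against 10.92, 11.20 and 11.17 in control lungs, with no overlap and a difference of -0.35 (SE 0.11, adjusted p = 0.161). The signal was 10.35, 10.78 and 10.98 in BALB CF lungs, against 10.60, 10.73 and 10.88 in BALB control lungs, a difference of -0.04 (SE 0.08, adjusted p = 0.847). The next brightest of its 5 probe sets gave -0.25 and -0.22 in B6, and no probe set of Lpcat1 passed in either strain. Without B6 control female 1 these 2 passed, at -0.31 (adjusted p = 0.0278) and -0.32 (adjusted p = 0.0219).

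Slc34a2 encodes the sodium-dependent phosphate transporter of the type 2 cell surface. It read 11.47, 11.53 and 11.67 in B6 CF lungs, against 11.63, 11.71 and 11.88 in B6 control lungs, a difference of -0.18 (SE 0.06, limma adjusted p = 0.0985). Of the 5 CF arrays only female 1 was within the range of the controls. The signal was 11.50, 11.60 and 11.75 in BALB CF lungs, against 11.38, 11.51 and 11.72 in BALB control lungs, a difference of 0.09 (SE 0.06, adjusted p = 0.438).

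By their brightest probe sets, Hc had the largest range of the 9 genes, 1.25 log2 units over all arrays. It read 10.54, 10.43 and 10.34 in B6 CF females and 10.11 and 10.02 in B6 CF males, against 10.76, 10.94 and 11.01 in B6 control females and 11.10, 10.98 and 10.99 in B6 control males. The genotypes did not overlap. The difference was -0.71 (SE 0.07, limma adjusted p = 6.26e-06), or 0.61 times the control signal. It passed in all 33 alternative analyses, with values between -0.76 and -0.69. Of these, 23 left out a single array, and leaving out a BALB array cannot move this difference.

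Hc was lower in CF lungs of both sexes of B6. In females it averaged 10.44 ± 0.10 in CF lungs and 10.90 ± 0.13 in control lungs (SD, n = 3 each), a difference of -0.47 (SE 0.09, limma adjusted p = 0.0120). In males it averaged 10.06 ± 0.06 in CF lungs (n = 2) and 11.02 ± 0.07 in control lungs (n = 3), a difference of -0.96 (SE 0.10, limma adjusted p = 1.12e-05). It was the 1 member gene of 9 called in each sex, beside 0.815% of probe sets in B6 females and 6.24% in B6 males. The female effect minus the male effect was 0.49 (SE 0.13, limma adjusted p = 0.0607) for Hc. None of the 9 genes passed for that difference, 1 did at an unadjusted p under 0.05, and 1.75% of probe sets passed. The call in females was lost when CF female 3, control female 2 or control female 3 was left out, with differences between -0.54 and -0.41 over all arrays left out in turn.

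In BALB Hc read 9.91, 10.10 and 10.04 in CF females and 10.03, 9.85 and 9.97 in CF males, against 10.16, 10.34 and 10.14 in control females and 9.93, 10.11 and 10.11 in control males. CF and control lungs overlapped in males and did not in females. The difference over both sexes was -0.15 (SE 0.06, limma adjusted p = 0.206). It was -0.19 (SE 0.09, limma adjusted p = 0.291) in females and -0.10 (SE 0.09, limma adjusted p = 0.695) in males. With limma none of the 9 genes passed in BALB females, in BALB males or for the female minus male difference of the CF effect, where 1.19%, 1.93% and 0.0178% of all probe sets passed. At an unadjusted p under 0.05 there were 1, 0 and 0 genes.

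**Figure D3:**
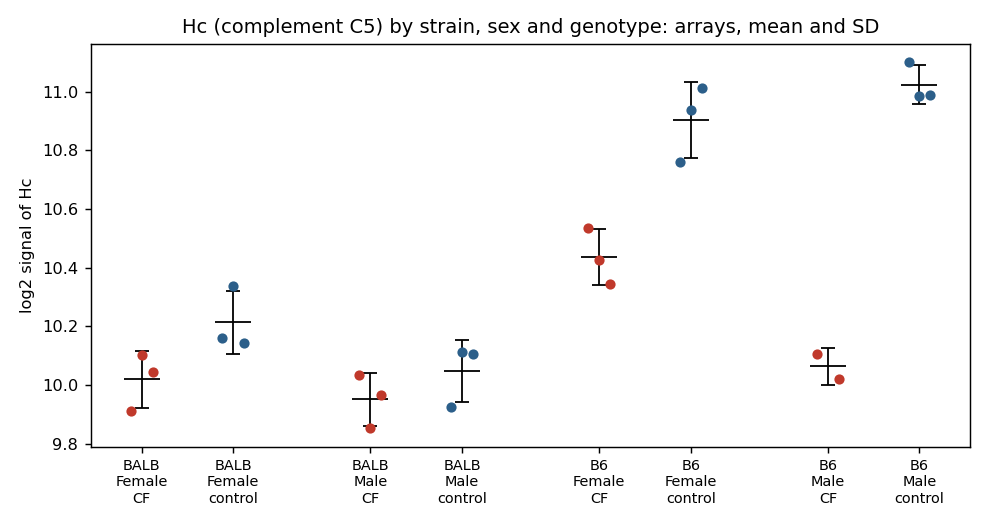
Log2 signal of Hc on every array, by strain, sex and genotype, CF in red and control in blue, with the mean and SD of each group of 3 arrays (2 for B6 CF males). B6 control lungs of both sexes lie at 10.76 and higher, above all other arrays, and B6 CF males lie at 10.11 and 10.02, within the range of BALB lungs.

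The strains were then compared in their CF effect. The BALB effect minus the B6 effect was 0.57 for Hc (SE 0.09, 95% interval 0.38 to 0.76, limma adjusted p = 0.00184). Hc was the 1 member gene of 9 called, beside 2.54% of all probe sets. The dimmest Abca3 probe set also differed, by 0.86 (SE 0.13, adjusted p = 0.00136), while the brightest gave 0.05 (95% interval -0.19 to 0.28, adjusted p = 0.903). Slc34a2 gave 0.28 (SE 0.09, adjusted p = 0.0881), with estimates of opposite sign in the strains, and 0.31 (adjusted p = 0.0419) without BALB control female 2 and 0.32 (adjusted p = 0.0481) without BALB control male 2.

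For the 4 surfactant protein genes the difference between the strains in CF effect was estimated between -0.08 and 0.14, and none passed. Their 95% intervals ran from -0.26 to 0.34 in all. With the intestine, squamous and muscle scores as covariates, the Hc difference was 0.47 and no longer passed (limma adjusted p = 0.127). Of the intestine markers 8 of 13 fell in BALB CF lungs, and of the squamous markers 3 of 13 rose there, beside 4.92% of all probe sets called.

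**Figure D4:**
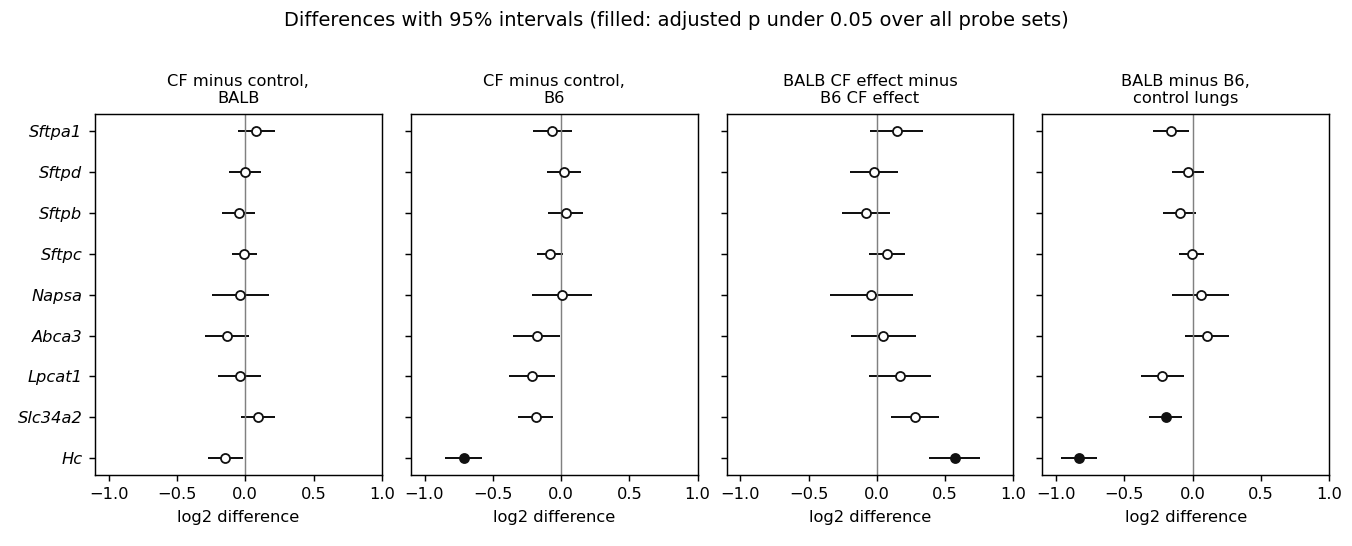
Log2 differences of the 9 genes with 95% intervals, for the CF effects, the difference of the CF effect between strains and the difference between strains in control lungs. Filled points passed the threshold of 0.05 over all probe sets. Hc differs by -0.71 in B6 CF lungs and by -0.83 between BALB and B6 control lungs. The CF effects of the 4 surfactant protein genes lie between -0.08 and 0.08. Between the strains in control lungs Sftpa1 gave -0.16 and Sftpb -0.10, neither of which passed.

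In control lungs, 2 of 9 member genes were lower in BALB than in B6 and 0 were higher, beside 15.6% of all probe sets. Hc averaged 10.13 in BALB control lungs and 10.96 in B6 control lungs, with no overlap between the 6 arrays of each. The difference was -0.83 (SE 0.06, limma adjusted p = 1.62e-09), or 0.561 times the B6 signal. This comparison and the CF effect in B6 share the 6 B6 control arrays, so they are not independent. Slc34a2 averaged 11.53 in BALB and 11.73 in B6, a difference of -0.20 (SE 0.06, adjusted p = 0.0231), with overlap. The Slc34a2 call held in 24 of 32 alternative analyses, some of them fits without a CF array, which cannot move this difference. The call did not hold with quantile normalization. It was lost without B6 control female 2, B6 control male 1, BALB control female 3, BALB control male 1 or BALB control male 3, taken singly, with differences of -0.19 to -0.17 and adjusted p of 0.0555 to 0.0750. With the other-tissue scores as covariates the Slc34a2 difference was -0.05 (adjusted p = 0.913), while that of Hc was -0.69 (adjusted p = 0.000501).

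Lpcat1 gave -0.22 (SE 0.08, limma adjusted p = 0.0508) for BALB against B6 control lungs on its main probe set. Of its other probe sets 2 passed, at -0.27 (SE 0.08, adjusted p = 0.0256) and -0.29 (SE 0.09, adjusted p = 0.0407). These calls held in 23 and 18 of 31 alternative analyses, among them fits without a CF array, which cannot move these differences. Neither held with the other-tissue scores as covariates (limma adjusted p = 0.551 and 0.474). The first of these calls was lost without B6 control female 2, B6 control female 3, B6 control male 1, B6 control male 3, BALB control female 2, BALB control male 1 or BALB control male 2, taken singly, with differences of -0.26 to -0.23 and adjusted p of 0.0505 to 0.0821. The other was lost without B6 control female 2, B6 control female 3, B6 control male 1, B6 control male 2, B6 control male 3, BALB control female 1, BALB control female 2, BALB control male 1 or BALB control male 2, taken singly, with differences of -0.30 to -0.23 and adjusted p of 0.0649 to 0.131. The main probe set passed without B6 control female 1, at -0.27 (adjusted p = 0.0195), and also, at an unmoved difference of -0.22, without any of 5 CF arrays. The dimmest Abca3 probe set was higher in BALB, by 0.35 (SE 0.09, adjusted p = 0.00860), while the brightest gave 0.11 (SE 0.08, adjusted p = 0.428). With the other-tissue scores as covariates the call of the dimmest was lost (limma adjusted p = 0.389). Sftpa1 gave -0.16 (SE 0.06, adjusted p = 0.0985), and -0.20 (adjusted p = 0.0414) without BALB control female 2. With quantile normalization it gave -0.20 (adjusted p = 0.0161). Sftpc averaged 13.68 in BALB and 13.68 in B6, with a 95% interval of the difference of -0.10 to 0.09.

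In CF lungs, 1 of 9 member genes was lower in BALB than in B6 and 0 were higher, beside 18.2% of all probe sets. Hc averaged 9.99 in BALB CF lungs and 10.25 in B6 CF lungs, a difference of -0.26 (SE 0.07, limma adjusted p = 0.00636), with overlap. With the other-tissue scores as covariates it was -0.22 and did not pass (adjusted p = 0.0962). Sftpb read 11.83, 11.95 and 12.20 in BALB CF lungs, against 12.08, 12.18 and 12.26 in B6 CF lungs, a difference of -0.18 (SE 0.06, adjusted p = 0.0507), and -0.21 (adjusted p = 0.0251) without BALB CF female 1. The dimmest Abca3 probe set was higher in BALB CF lungs, by 1.22 (SE 0.10, adjusted p = 4.48e-09), with no overlap. A dim second probe set of Napsa was also higher, by 0.33 (SE 0.10, adjusted p = 0.0205), while the main one gave 0.02. The call of the second was lost without B6 CF female 1, B6 CF male 1, BALB CF female 1 or BALB CF male 2, taken singly, with differences of 0.25 to 0.30 and adjusted p of 0.0514 to 0.110.

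Between female and male control lungs none of the 9 genes passed with limma, 2 had an unadjusted p under 0.05, and 2.43% of all probe sets passed. They were Sftpb, at 0.14 (SE 0.06, adjusted p = 0.223), and Lpcat1, at 0.20 (SE 0.08, adjusted p = 0.168). Sftpb read 12.02 to 12.28 in females and 11.82 to 12.13 in males. Lpcat1 read 10.75 to 11.20 in females and 10.60 to 10.89 in males.

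Correlations among the members were taken over the 23 arrays after subtracting the mean of each of the 8 groups. They are descriptions, since arrays share their scaling and their content of other tissues. Sftpa1 correlated with Napsa at 0.84 (Pearson), at 0.77 without the 2 farthest arrays, at 0.92 over the 12 BALB arrays and at 0.70 over the 11 B6 arrays. Sftpa1 and Sftpd correlated at 0.72, and Abca3 and Lpcat1 at 0.64. Sftpd and Lpcat1 correlated at -0.72. Over the BALB and B6 arrays apart, Sftpa1 and Sftpd gave 0.73 and 0.72, Abca3 and Lpcat1 0.64 and 0.72, and Sftpd and Lpcat1 -0.80 and -0.66. Other pairs changed sign between the strains. Slc34a2 and Napsa gave 0.78 in BALB and -0.31 in B6, and Abca3 and Slc34a2 gave -0.32 and 0.77. Of the 36 pairs, 23 were positive over all arrays, 9 were above 0.5 and 3 were below -0.5.

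**Figure D5:**
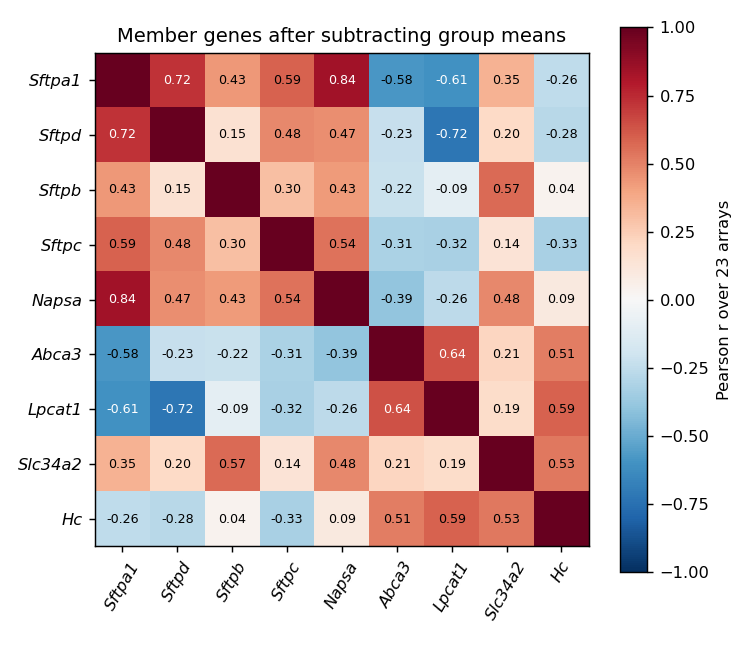
Pearson correlation of each pair of the 9 genes over 23 arrays, after subtracting the mean of each group, on a colour scale with blue for negative and red for positive values. Sftpa1 correlates with Napsa at 0.84 and with Sftpd at 0.72, and Lpcat1 correlates with Sftpa1 at -0.61 and with Sftpd at -0.72.

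The genes most like Hc by the same measure, among 11625 others, were Gpatch1, Cpm, a membrane carboxypeptidase, and Efs, an adaptor protein. Their Pearson correlations with Hc were 0.84, 0.83 and 0.82. These are the highest of 11625 values, and how high chance alone would reach was not tested. In B6 CF lungs Gpatch1 differed by -0.07, Cpm by -0.35 and Efs by -0.01, and none passed (limma adjusted p = 0.759, 0.0547 and 0.982). Hc lies on chromosome 2. Of the 10 nearest measured genes on each side in the GRCm38.p6 gene order, 1 of the 20 passed in B6 CF lungs, near the 4.71% of all probe sets. It was Hspa5, a chaperone of the endoplasmic reticulum, named after its value was seen, at -0.54 (SE 0.11, limma adjusted p = 0.00698).

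Of 26 measured type 2 cell markers besides the members, 3 fell and 1 rose in B6 CF lungs, with a median difference of -0.13 beside 0.01 over all genes and 4.71% of all probe sets called. Ank3, a membrane scaffold protein, fell by 0.45 (SE 0.09, limma adjusted p = 0.00581). Ppp1r14c, an inhibitor of protein phosphatase 1, fell by 0.36 (SE 0.08, limma adjusted p = 0.00843), and the lung chemokine Cxcl15 fell by 0.25 (SE 0.07, adjusted p = 0.0444). Cd74, the invariant chain of MHC class II, which immune cells also express, rose by 0.36 (SE 0.09, limma adjusted p = 0.0219). The score of this list was 0.12 to 0.24 in B6 CF lungs, against 0.25 to 0.42 in B6 control lungs, without overlap.

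In BALB CF lungs 0 of these 26 markers passed with limma, and the score was -0.19 to 0.01 in CF lungs, against -0.22 to 0.02 in control lungs. Between the strains in control lungs, 15 of the 26 were lower in BALB and 0 were higher. Acoxl, an acyl-coenzyme A oxidase-like protein, read 4.02 to 4.80 in BALB control lungs, against 7.98 to 8.64 in B6 control lungs, a difference of -3.90 (SE 0.13, limma adjusted p = 2.20e-15). Its BALB mean of 4.32 was below the median of 4.59 over all probe sets and is not shown to be above background, so the size of that difference is not exact. Hdc, the enzyme that makes histamine, gave -0.81 (SE 0.08, adjusted p = 7.64e-08), Bex2 gave -1.09 (SE 0.15, adjusted p = 1.02e-05) and Wfdc2, a secreted whey acidic protein, gave -0.36 (SE 0.05, adjusted p = 2.36e-05). Of the ciliated cell markers 12 of 13, and of the club cell markers 6 of 13, were also lower in BALB control lungs. In the other direction, 9 of 14 endothelial markers (list median 0.31) and 9 of 13 intestine markers (list median 0.95) were higher in BALB control lungs, beside 15.6% of all probe sets called. The part of these shifts in the type 2 marker differences was not tested.

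Of 36 genes of surfactant lipid synthesis and transport, 1 rose and 3 fell in BALB CF lungs, and 2 rose and 1 fell in B6 CF lungs, beside 4.92% of all probe sets called in BALB and 4.71% in B6. The list medians were 0.02 in BALB and -0.03 in B6, beside -0.01 and 0.01 over all genes. Lpcat2, a relative of Lpcat1 known from inflammatory cells, rose in both, by 0.52 (SE 0.07, limma adjusted p = 0.000368) in BALB and 0.41 (SE 0.08, adjusted p = 0.00373) in B6. Lpin1, a phosphatidate phosphatase, fell by 0.40 (SE 0.08, limma adjusted p = 0.00712) in BALB and rose by 0.33 (SE 0.09, adjusted p = 0.0345) in B6, and the BALB minus B6 difference of its effect was -0.73 (SE 0.12, adjusted p = 0.00260). Fads2, a fatty acid desaturase, fell by 0.34 (SE 0.07, adjusted p = 0.00735) in B6. In BALB the fatty acid elongase Elovl5 fell by 0.22 (SE 0.05, limma adjusted p = 0.0155) and the choline kinase Chka fell by 0.25 (SE 0.06, adjusted p = 0.0222).

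Of 34 genes of processing, secretion and turnover of surfactant protein, 3 rose and 1 fell in BALB CF lungs, and 2 rose in B6 CF lungs, against the same shares of 4.92% and 4.71% over all probe sets. In BALB the receptor subunits for GM-CSF, the cytokine that lets macrophages clear surfactant, rose, Csf2rb by 0.56 (SE 0.10, limma adjusted p = 0.00257) and Csf2ra by 0.54 (SE 0.10, adjusted p = 0.00301). The cytokine gene Csf2 rose by 0.37 (SE 0.10, adjusted p = 0.0314), and Stxbp5, which takes part in vesicle fusion, fell by 0.31 (SE 0.08, adjusted p = 0.0324). In B6 Ctsh, a cathepsin known to process SP-B and SP-C, rose by 0.39 (SE 0.11, limma adjusted p = 0.0427), and Marco, a macrophage scavenger receptor, rose by 0.83 (SE 0.19, adjusted p = 0.0148).

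Of 29 transcription factors tied to type 2 genes, 2 fell in BALB CF lungs and 0 passed in B6 CF lungs, where 4.92% and 4.71% of all probe sets passed. Those were Cebpb, which fell by 0.54 (SE 0.09, limma adjusted p = 0.00104), and Cebpd, which fell by 1.29 (SE 0.24, adjusted p = 0.00276). Both also differed between the strains in their CF effect, Cebpb at -0.78 (SE 0.13, limma adjusted p = 0.00244) and Cebpd at -1.84 (SE 0.35, adjusted p = 0.00643).

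Among 22 other collectin, complement and lung defence genes, 2 rose in BALB CF lungs and 5 in B6 CF lungs, and 0 fell in either, with 4.92% and 4.71% of all probe sets called in either direction. C3ar1, the receptor for the C3a fragment, rose by 0.72 (SE 0.11, limma adjusted p = 0.000554) in BALB and 0.57 (SE 0.12, adjusted p = 0.00561) in B6. Sirpa, a macrophage receptor that SP-A and SP-D bind, rose by 0.51 (SE 0.09, adjusted p = 0.00166) in BALB. In B6 the subunits of C1q, which starts the classical complement pathway, rose, C1qa by 0.79 (SE 0.11, limma adjusted p = 0.000253), C1qc by 0.74 (SE 0.11, adjusted p = 0.000569) and C1qb by 0.81 (SE 0.14, adjusted p = 0.00118).

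Of 16 solute carriers and channels of alveolar epithelium, 2 fell in BALB CF lungs and 0 passed in B6 CF lungs, again beside 4.92% and 4.71% of all probe sets. They were Cftr, at -1.67 (SE 0.13, limma adjusted p = 6.44e-07), and Scnn1a, a subunit of the epithelial sodium channel, which fell by 0.30 (SE 0.08, adjusted p = 0.0403). BALB control lungs also scored higher for intestine, and the part of intestine content in the Cftr difference was not tested.

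Markers of other cell types moved beside the members. In BALB CF lungs 5 of 12 T cell, 7 of 9 B cell and 7 of 10 neutrophil markers rose, and 4 of 14 endothelial markers fell, beside 4.92% of all probe sets called. In B6 CF lungs 9 of 12 T cell and 6 of 10 neutrophil markers rose, and 4 of 18 type 1 cell markers fell, beside 4.71% of all probe sets called. The T cell score was 0.20 to 0.63 in B6 CF lungs, against -0.60 to -0.12 in B6 control lungs, and the type 1 score was -0.16 to 0.00 in B6 CF lungs, against 0.06 to 0.12 in B6 control lungs, both without overlap. Of club cell and ciliated cell markers (13 each), 0 passed in B6 CF lungs with limma, and 1 ciliated cell marker fell in BALB CF lungs. The part of these cells in the member differences was not tested.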

How the data were processed

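The log2 signals were used as deposited by the authors, 1 column per array for 45101 probe sets. That the scale is log2 was inferred from the values (1.79 to 13.82), while the sources used here give no summary or normalization method. Array medians were 4.56 to 4.64 and correlations between arrays 0.971 to 0.996, and the number of arrays limits the precision. After leaving out 64 control probe sets, 45037 were fitted in R 4.3.3 with limma 3.58.1 (lmFit, eBayes) as means of 8 groups of strain, sex and genotype. Sexes were weighted equally, and Benjamini-Hochberg adjustment ran over all probe sets for each of 12 comparisons. Of the probe sets, 34945 had 1 symbol in the platform annotation, 932 several and 9160 none. Members and gene lists were chosen with earlier results of these data known. All members were named, with up to 4 genes of lowest p per list and comparison and the 3 genes most like a called member. The fit was tested on simulated data with 200 probe sets changed. A change of 0.25 was recovered in 0% of them for the CF effect in B6 and 6% in BALB. For the BALB minus B6 difference of the CF effect it was 0%. At a change of 0.5 these were 79.5%, 80% and 50.5%. A small difference that did not pass is thus not shown to be absent. Alternatives were array weights, quantile normalization, median centring, a filter on dim probe sets, the mean over probe sets, trend and robust variance, other-tissue scores as covariates, fits on only the arrays compared, a replicate block and each array left out. Replicate numbers came from the labels. Same-numbered arrays of different groups had a median correlation of deviations of 0.002 (range -0.18 to 0.35), beside -0.004 (range -0.29 to 0.28) for arrays of other numbers. No sign of pairing by number was seen, but groups of 2 or 3 arrays cannot exclude it.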

Additional observations from a re-analysis of the deposited data

Results flagged for a closer look

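Sftpb read 11.82 in BALB control male 3, where the nearest of the other 5 BALB control arrays read 12.02. The gap was 0.627 of the group's range, just above the 95% critical value of Dixon's test for 6 arrays. It was the 1 such array in 36 groups tested, and chance gives about 1 in 20.

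The CF effect differed between BALB and B6 for Hc, by 0.57 (SE 0.09, limma adjusted p = 0.00184), with -0.15 in BALB and -0.71 in B6. It differed for the dimmest Abca3 probe set by 0.86 (SE 0.13, limma adjusted p = 0.00136), with 0.11 in BALB and -0.75 in B6.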

How the results depend on the processing

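Counts of member genes past the threshold, out of 9, moved as follows. For the CF effect in B6 the count of 1 became 2 with array weights, with the mean over probe sets, with trend and robust variance and, chosen after seeing the data, without B6 control female 1 and male 3 together, and it was 1 to 2 with single arrays left out, 2 without B6 control female 1. For B6 females the count of 1 became 3 with array weights, 2 with the mean over probe sets and without those 2 control arrays, and 0 with only the arrays of the comparison, and was 0 to 2 with single arrays left out. For B6 males the count of 1 became 2 with the mean over probe sets. For the difference of the CF effect between strains the count of 1 became 2 with array weights, the mean over probe sets and trend and robust variance, 0 with the other-tissue covariates, and 1 to 2 with single arrays left out. For BALB minus B6 control lungs the count of 2 became 1 with covariates, 3 with array weights, the dim filter and quantile normalization and 4 with trend and robust variance, and was 1 to 3 with single arrays left out. For BALB minus B6 CF lungs the count of 1 became 2 with array weights, centring, the dim filter and trend and robust variance, 3 with the mean over probe sets and 0 with covariates, and was 1 to 2 with single arrays left out. The female minus male difference of the CF effect in B6 went past the threshold for 1 gene, against 0, with array weights, the dim filter, the mean over probe sets and trend and robust variance, and the female minus male comparison of control lungs for 1 gene with array weights. The cause of these changes was not tested. With the replicate block the counts were those reported in all 12 comparisons, 1 for the CF effect in B6 and 0 in BALB. No called effect changed sign in any alternative. Of 199 effects that did not pass, recomputed 6277 times, 66 values passed and 231 changed sign. Groups of 3 and 2 arrays limit all results, and an exact permutation test of 3 arrays against 3 cannot go below p = 0.1.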
